A study of Rattus norvegicus with 32 samples.

Results

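The NF-kappaB system was described in rat liver sinusoidal endothelial cells (LSECs) through 10 genes, of 32623 in the count files. They are the 5 subunits of the transcription factor (Nfkb1, Nfkb2, Rela, Rel and Relb), the 3 classical inhibitors that hold it in the cytoplasm (Nfkbia, Nfkbib and Nfkbie), the deubiquitinase gene Tnfaip3 and the nuclear cofactor gene Bcl3. They were listed by symbol for their role in the pathway, and each symbol matched 1 gene. All 10 passed the low-count filter in every comparison, and the lowest expected count of any of them in any library was 399.

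NF-kappaB is a family of dimers that wait in the cytoplasm bound to an inhibitor of the IkappaB group. Signals such as TNF, interleukin-1 or bacterial products activate a kinase complex, the inhibitor is degraded and the dimer enters the nucleus. There it switches on inflammatory genes and also genes of its own inhibitors, so that the response limits itself. Rela and Rel carry strong activation domains, while Nfkb1 and Nfkb2 encode precursors that are cut to the DNA-binding partners. Relb mostly pairs with the Nfkb2 product in the slower, non-canonical branch. In LSECs, the fenestrated lining of the liver capillaries, the pathway is known for its control of leukocyte adhesion molecules and chemokines.

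Data came from 32 libraries of poly(A) RNA. In the carbon tetrachloride (CCl4) experiment, 6 libraries were from untreated Wistar Han rats (healthy), 5 from Wistar Han rats that inhaled CCl4 for 2 weeks (acute), 5 from rats exposed for 6 weeks (fibrosis) and 6 from rats labelled as CCl4 treated without a duration, for which the study's design gives 12 to 14 weeks (cirrhosis). According to the study's methods the rats were male, the drinking water of the CCl4 model held phenobarbital, and LSECs were taken some days after the last exposure on an iodixanol density gradient. Whether the healthy rats also drank phenobarbital is not given in the sources used here. The other 10 libraries belong to an experiment with thioacetamide (TAA), another liver toxin, in a group of 5 labelled control and a group of 5 labelled TAA control. All are labelled Wistar Han, whereas the study names Sprague-Dawley rats for TAA, and which of the groups received TAA was not settled, so that no treatment direction is given for it. One pair of libraries, replicates 14 and 15 of the second of these groups, differed little (chi-square per degree of freedom 2.96, next lowest pair within a group 23.6). They were kept as separate libraries, and averaging them left the number of called genes in that comparison at 3.

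Totals ranged from 25646531 to 46464289 expected counts per library. Levels below are in CPM, the count of a gene relative to the total of its library after scaling with TMM factors within each experiment, so that CPM of the CCl4 and TAA experiments are not comparable with each other. A gene was called in a comparison when its Benjamini-Hochberg adjusted p from limma-voom, over all genes tested, was under 0.05 and its fold change was above 1.5. The labels name no individual rats, whereas the study counts independent LSEC isolations in each group. The p-values measure only the spread between these libraries, part of which may be technical. Expression was measured in bulk, so that fewer cells of a type and less RNA per cell cannot be told apart. Where libraries of 2 groups are said not to overlap, the share of all genes without overlap was not computed.

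The libraries were first checked against LSEC markers, and the acute and fibrosis libraries stood apart. The summed level of 9 measured LSEC and endothelial markers ran from 16253 to 31948 CPM in healthy and from 16163 to 20920 CPM in cirrhosis, but from 3563 to 4217 CPM in acute and from 2419 to 3487 CPM in fibrosis. The scavenger receptor gene Stab2, a defining LSEC marker, had a median of 3531 CPM in healthy and 3287 CPM in cirrhosis, against 113.6 CPM in acute and 190.6 CPM in fibrosis. Of the 9 markers, 0 were called higher and 7 lower than healthy in acute, and 0 and 8 in fibrosis. In cirrhosis 1 was called higher and 3 lower. Among the lower ones was Stab1, with a mean of 1177 CPM in cirrhosis against 4957 CPM in healthy. Cdh5, which marks all endothelium, had medians of 1382, 1522, 997.6 and 1454 CPM in healthy, acute, fibrosis and cirrhosis. A list of 10 immediate-early genes, such as Fos and Egr1, which react within minutes to stimulation and to tissue dissociation, summed to between 40902 and 70344 CPM in healthy, 1280 and 2713 CPM in acute, 2245 and 3571 CPM in fibrosis, and 19068 and 42473 CPM in cirrhosis. Whether the cells of acute and fibrosis were handled differently from those of healthy and cirrhosis is not given in the sources used here. The part of the marker differences in the results below was not tested.

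Markers of other liver cells also differed between the groups. The summed macrophage list ran from 283 to 2667 CPM in healthy, 65.9 to 201 CPM in acute, 28.8 to 176 CPM in fibrosis and 676 to 2467 CPM in cirrhosis. The lymphocyte list ran from 13.3 to 189 CPM in healthy and from 12.4 to 29.8 CPM in cirrhosis, and stayed at or below 17.6 CPM in acute and fibrosis, with the B cell gene Ms4a1 and the T cell gene Cd3d at a median of 0 CPM in acute. Of its 7 genes, 0 were called higher and 1 lower in cirrhosis than in healthy, with a median log2 fold change of 0.31. Neutrophil and cholangiocyte lists stayed at or below 45.3 and 26.4 CPM in every CCl4 library, and the neutrophil genes S100a8 and S100a9 had medians of 0 CPM in acute and fibrosis. Hepatocyte genes ran from 722 to 17403 CPM in healthy, 85.1 to 768 CPM in acute, 995 to 4142 CPM in fibrosis and 1586 to 10770 CPM in cirrhosis. The summed stellate cell list ran from 283 to 784 CPM in healthy and from 1315 to 2132, 1300 to 1745 and 615 to 1904 CPM in acute, fibrosis and cirrhosis. Most of the sum in acute and fibrosis came from Reln, with means of 1678 and 1377 CPM against 166.8 CPM in healthy. Of the 8 stellate cell genes, 1 was called higher and 5 lower than healthy in acute, 3 and 3 in fibrosis, and 6 and 0 in cirrhosis. Their part in the results was not tested either.

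Because several of these genes are textbook targets of NF-kappaB itself, the stretch before their start sites was read from RefSeq (build GRCr8, another build than the Rnor_6.0 to which the reads were mapped). Promoters of 9 of the 10 genes were matched by symbol, and Relb was not in the table. The kappaB motif was searched on both strands over 300 bases, from 250 before to 50 after the start, as 8 spelled patterns, GGGANNCCCC, GGGANNCTCC, GGGANNTCCC, GGGANNTTCC, GGGGNNCCCC, GGGGNNCTCC, GGGGNNTCCC and GGGGNNTTCC, which can overlap each other. At least 1 match was found in 7 of the 9 promoters and in 7.51% of the 33469 promoters in the table. Rela and Nfkbib had none. The 120 bases directly before the start are printed for the 5 genes with a match there and for Rela. Matched bases of either strand are in capitals.

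Tnfaip3, chr1:15543980-15544099, minus strand: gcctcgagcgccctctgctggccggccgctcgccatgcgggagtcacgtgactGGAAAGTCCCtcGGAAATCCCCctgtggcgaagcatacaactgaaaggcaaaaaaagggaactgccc
Bcl3, chr1:88613556-88613675, minus strand: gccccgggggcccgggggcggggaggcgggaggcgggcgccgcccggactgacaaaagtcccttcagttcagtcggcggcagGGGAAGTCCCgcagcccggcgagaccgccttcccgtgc
Rel, chr14:101921939-101922058, minus strand: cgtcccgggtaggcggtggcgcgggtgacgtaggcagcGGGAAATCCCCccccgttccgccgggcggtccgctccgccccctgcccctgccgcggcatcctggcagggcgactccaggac
Nfkbia, chr6:78597073-78597192, minus strand: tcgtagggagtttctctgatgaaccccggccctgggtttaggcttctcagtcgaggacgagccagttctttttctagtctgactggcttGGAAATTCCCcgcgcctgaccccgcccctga
Nfkb2, chr1:255108254-255108373, plus strand: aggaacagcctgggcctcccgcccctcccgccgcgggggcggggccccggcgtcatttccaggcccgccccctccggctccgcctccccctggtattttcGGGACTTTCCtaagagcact
Rela, chr1:212354216-212354335, plus strand: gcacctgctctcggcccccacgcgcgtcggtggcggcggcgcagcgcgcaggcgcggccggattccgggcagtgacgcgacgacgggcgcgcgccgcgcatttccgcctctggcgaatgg

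The matches began 67 and 55 bases before the start in Tnfaip3, 38 in Bcl3, 82 in Rel, 31 in Nfkbia and 20 in Nfkb2. Further matches outside the printed stretch lay 170 bases before the start of Tnfaip3, 219 before that of Rel and 164 before that of Nfkbie, and 4 bases into the transcript of Nfkb1. A match is a description of the letters, not a measured binding site, and no match says only that these letters are not in this window.

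Compared with healthy LSECs, most of the 10 genes were lower in acute and fibrosis, and fewer of them in cirrhosis. In acute, 7 were called lower and 1 higher, where 37.9% and 35.5% of the 14317 genes tested were called in these directions. In fibrosis, 6 were called lower and 1 higher, against 34.9% and 35.3% of 14538 genes. In cirrhosis, 3 were called lower and 1 higher, against 24.7% and 27.1% of 14789 genes. The median log2 fold change of the 10 genes was -1.21 in acute, -0.85 in fibrosis and -0.37 in cirrhosis, beside medians over all genes tested of -0.09, -0.03 and 0.07. The 3 comparisons share the same healthy libraries. In cirrhosis the split depended on scaling: without TMM factors, 2 of the 10 were called higher and 0 lower, and the share of higher genes among all genes called went from 52.2% to 71.3%. In fibrosis that share went from 50.3% to 60.9%, with 1 gene called higher and 4 lower, and in acute from 48.4% to 58.2%, with 1 higher and 5 lower.

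**Figure D1:**
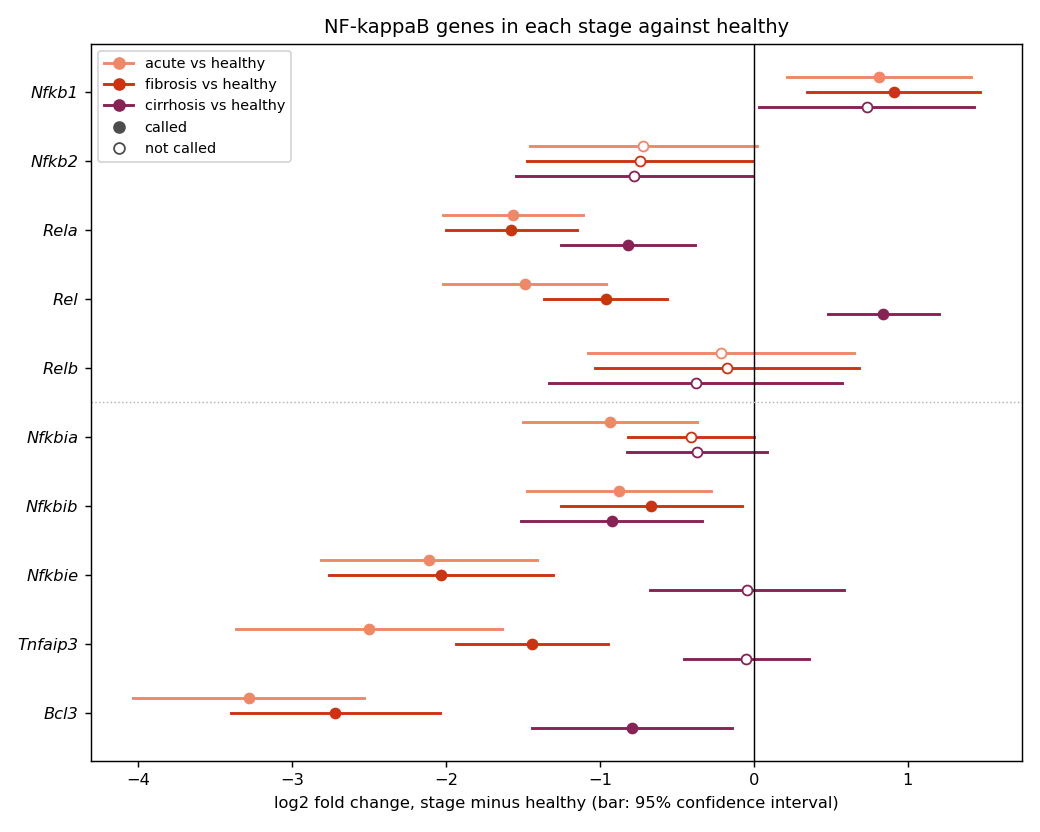
Log2 fold change of each gene in acute, fibrosis and cirrhosis against healthy on the horizontal axis, with 95% confidence intervals as bars and filled points for called genes; subunits are above the dotted line and inhibitors below. Bcl3, Tnfaip3 and Nfkbie lie farthest to the left in acute, and Bcl3, Nfkbie and Rela in fibrosis. Rel is the gene whose points lie on both sides of 0 as called changes.

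Among the subunits, Rela, the main activating subunit of the canonical dimer, was the only one called lower in all 3 stages. Its level in healthy was 496.4, 815, 927.3, 941.3, 961.9 and 1333 CPM, with the lowest value in replicate 6 and the highest in replicate 3. All 5 acute libraries lay between 260 and 351.6 CPM and all 5 fibrosis libraries between 274.7 and 288.8 CPM, below every healthy library. Rela fell by 1.56 on the log2 scale in acute (SE 0.21, adjusted p = 2.40e-05) and by 1.57 in fibrosis (SE 0.20, adjusted p = 1.68e-05). In cirrhosis it lay between 423.3 and 551.6 CPM and overlapped with healthy replicate 6. It fell by 0.82 there (SE 0.20, adjusted p = 0.0045), a call that was lost without TMM factors (log2 fold change -0.47).

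Rel, which encodes the c-Rel subunit best known from lymphocytes and activated cells, was the member that was called in opposite directions. It stood at 46.77, 48.35, 73.02, 73.95, 75.19 and 86.65 CPM in healthy. The acute libraries held 15.87, 19.39, 23.19, 23.93 and 37.98 CPM, the last of them in replicate 8, and the fibrosis libraries 29.01 to 37.9 CPM. Both groups lay wholly below healthy. In cirrhosis the 6 libraries lay between 93.36 and 131.4 CPM, wholly above healthy. The log2 fold change was -1.49 in acute (SE 0.24, adjusted p = 0.00013), -0.96 in fibrosis (SE 0.18, adjusted p = 0.00048) and 0.84 in cirrhosis (SE 0.17, adjusted p = 0.0012). The fibrosis value was the least secure of the 3, since without TMM factors it was -0.57 (adjusted p = 0.021) and under the fold-change threshold.

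Nfkb1, the precursor of the DNA-binding partner of Rela, was the gene called higher in acute and fibrosis. In healthy, 4 libraries lay between 198.7 and 214.3 CPM, while replicate 1 had 334.9 CPM and replicate 3 had 568.7 CPM. The acute libraries ran from 344.5 to 578.1 CPM and the fibrosis libraries from 430.8 to 518.1 CPM, so that of the healthy libraries only replicate 3 was not below them. Its log2 fold change was 0.82 in acute (SE 0.28, adjusted p = 0.016) and 0.91 in fibrosis (SE 0.26, adjusted p = 0.0067). The acute call was lost when the farthest library of each group was left out (log2 fold change 0.66, adjusted p = 0.072). In cirrhosis 5 libraries lay between 418.3 and 652.8 CPM and replicate 2 at 189.8 CPM, below every healthy library. The log2 fold change was 0.73 (SE 0.32, adjusted p = 0.068), and without cirrhosis replicate 2 the adjusted p was 0.0076.

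Nfkb2 and Relb, the pair of the non-canonical branch, were not called in any of the 3 comparisons. Nfkb2 ran from 193.8 CPM in replicate 6 to 974.7 CPM in replicate 3 in healthy, and from 244.5 to 340.5 CPM in acute, 251.8 to 290.3 CPM in fibrosis and 149.1 to 368.1 CPM in cirrhosis. The log2 fold changes were -0.72, -0.74 and -0.78 (adjusted p = 0.070, 0.062 and 0.077). Without healthy replicate 6 the gene was called lower in all 3 (adjusted p = 0.0046, 0.0015 and 0.0073). By edgeR's quasi-likelihood test and by DESeq2 it was called lower in all 3 as well. Relb ran from 42.94 CPM in replicate 6 to 317.2 CPM in replicate 3 in healthy, a range that held all other CCl4 libraries except cirrhosis replicate 2 at 34.96 CPM. Its log2 fold changes were -0.21 in acute (95% interval -1.08 to 0.65), -0.17 in fibrosis (-1.03 to 0.69) and -0.38 in cirrhosis (-1.33 to 0.57), so that falls of 2-fold were within all 3 intervals.

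**Figure D2:**
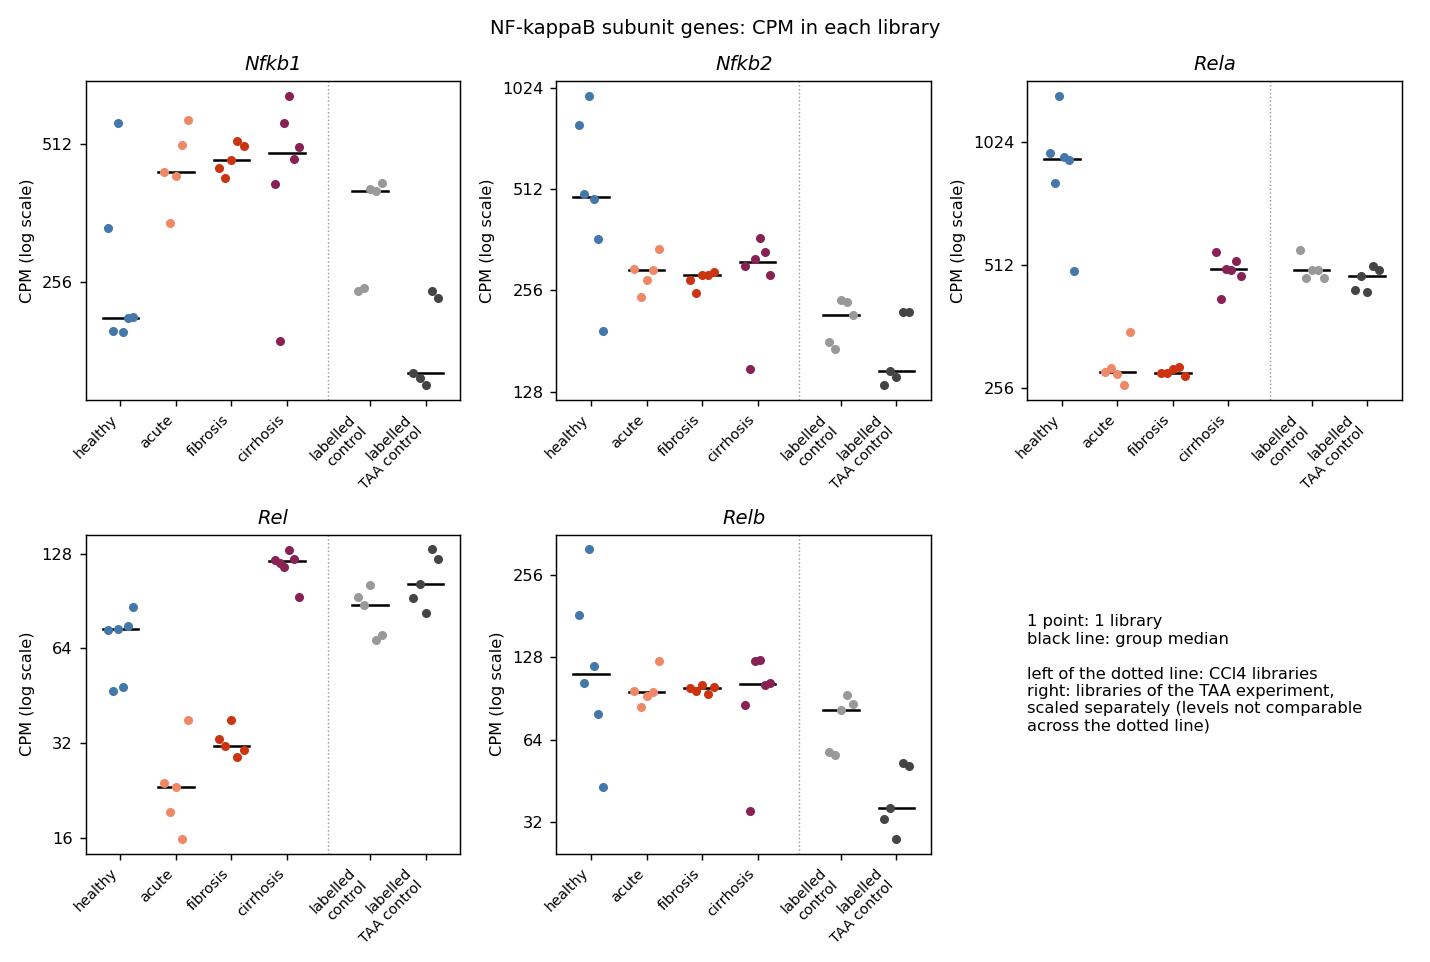
CPM of the 5 subunit genes in each library on a log scale, with a black line at each group's median and the separately scaled TAA experiment right of the dotted line. Healthy libraries are the most spread of the CCl4 groups in Nfkb2, Rela and Relb, fibrosis libraries are tightly grouped, and Rel separates healthy, acute with fibrosis, and cirrhosis without overlap between these 3 sets.

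The healthy libraries differed from each other more than those of acute or fibrosis for most of the 10 genes. The SD in healthy was 52.0% of the mean for Nfkb2 and 69.7% for Relb, against 5.51% and 2.99% in fibrosis. Replicate 3 was the highest healthy library and replicate 6 the lowest for Nfkb2, Rela, Relb, Nfkbib and Bcl3. For Rel the order was different, with replicate 6 highest and replicate 2 lowest.

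A ratio of 2 genes within a library does not depend on scaling. The expected counts of Nfkb2 divided by those of Nfkb1 gave 0.905 to 2.49 in healthy, with a median of 2.04. The ratio was 0.581 to 0.71 in acute, 0.550 to 0.608 in fibrosis and 0.559 to 0.786 in cirrhosis, so that all 16 CCl4-exposed libraries lay below the lowest healthy one. Relb over Rela ran from 0.0858 to 0.238 in healthy, and all acute and fibrosis libraries lay above that range, at 0.294 to 0.368 and 0.325 to 0.363. In cirrhosis it ran from 0.0826 to 0.251 and overlapped with healthy. These ratios were formed after the values were seen and are given without a test. They compare the share of 2 genes between groups and not the levels of the 2 genes with each other, since gene lengths were not used.

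**Figure D3:**
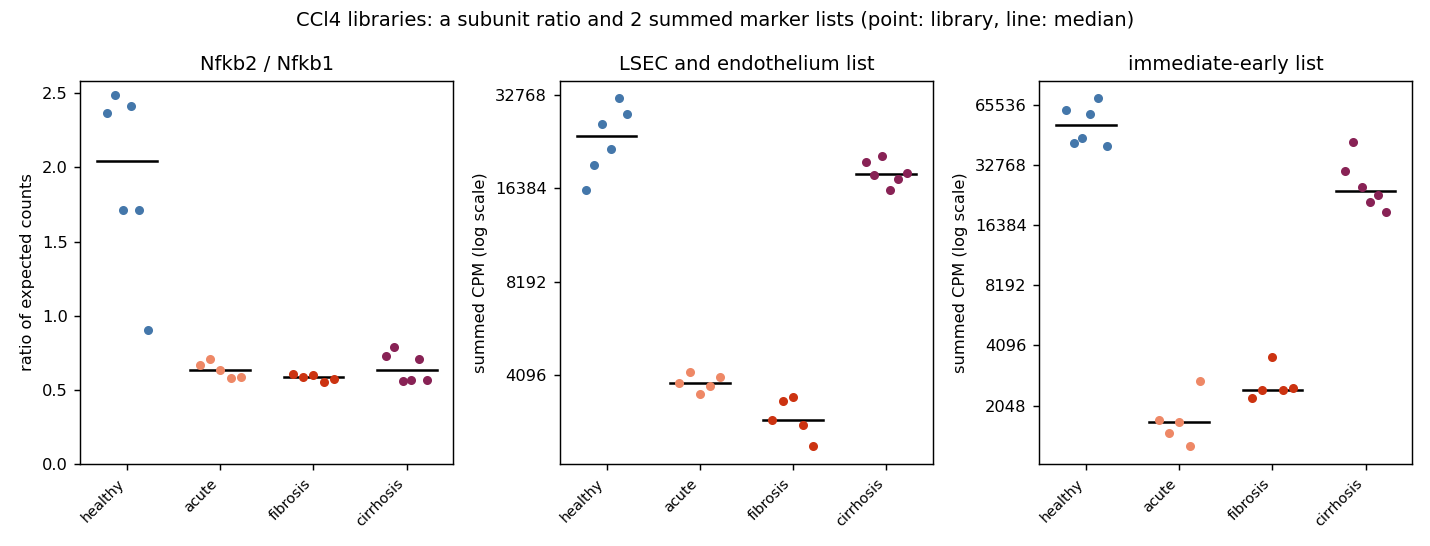
Left, ratio of Nfkb2 to Nfkb1 expected counts in each CCl4 library; middle and right, summed CPM of the LSEC and endothelium list and of the immediate-early list on a log scale, with group medians as lines. The ratio is at least 0.905 in all healthy libraries and at most 0.786 in all others. Both lists are lowest in acute and fibrosis. In cirrhosis the immediate-early list spans 19068 to 42473 CPM, mostly below the healthy range of 40902 to 70344 CPM.

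Of the 3 classical inhibitors, Nfkbie showed the largest differences from healthy in acute and fibrosis, and Nfkbib in cirrhosis. Nfkbie encodes IkappaB-epsilon, an inhibitor known for late feedback. In healthy it was 39.79, 44.59, 73.98, 81.25, 97.74 and 146.1 CPM. Acute libraries held 12.66 to 19.11 CPM and fibrosis libraries 12.45 to 23.94 CPM, all below healthy, and cirrhosis libraries 55.31 to 93.39 CPM, within the healthy range. Nfkbie fell by 2.11 on the log2 scale in acute (SE 0.32, adjusted p = 7.62e-05) and by 2.03 in fibrosis (SE 0.33, adjusted p = 0.00015). In cirrhosis its log2 fold change was -0.05 (95% interval -0.67 to 0.58, adjusted p = 0.90).

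Nfkbia encodes IkappaB-alpha, the inhibitor degraded first and resynthesized first. It was 1624 to 2394 CPM in 5 healthy libraries and 3400 CPM in replicate 3. The acute libraries held 698.5, 917.6, 1018, 1135 and 1903 CPM, with replicate 8 inside the healthy range and the other 4 below it. Fibrosis libraries ran from 1321 to 1912 CPM and cirrhosis libraries from 1305 to 2264 CPM. Nfkbia fell by 0.94 in acute (SE 0.26, adjusted p = 0.0055), a call that was lost without TMM factors (log2 fold change -0.53). In fibrosis and cirrhosis the log2 fold changes were -0.41 (95% interval -0.82 to 0.00, adjusted p = 0.066) and -0.37 (95% interval -0.82 to 0.08, adjusted p = 0.15).

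Nfkbib, the gene of IkappaB-beta, which is not known for rapid feedback, was called lower at every stage. It ran from 115.5 to 458.5 CPM in healthy, 110.8 to 154.4 CPM in acute, 131.5 to 158.3 CPM in fibrosis and 95.62 to 144.8 CPM in cirrhosis. Of the healthy libraries only replicate 6 was not above all libraries of the 3 stages. It fell by 0.87 in acute (adjusted p = 0.011), by 0.67 in fibrosis (adjusted p = 0.041) and by 0.92 in cirrhosis (adjusted p = 0.012). Without TMM factors it was called at no stage. The fibrosis call was also lost in 8 of the fits that left out a library, with adjusted p up to 0.084.

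Tnfaip3 encodes A20, an enzyme that edits ubiquitin chains on signalling adaptors and ends NF-kappaB activation. Its healthy libraries held 501.9, 598, 646.8, 671.1, 677.8 and 1096 CPM. In acute it was 54.12, 74.87, 100.2, 166.4 and 324.3 CPM, the highest again in replicate 8, and in fibrosis 178.4, 195.5, 208.8, 309.4 and 339.5 CPM. Both groups lay wholly below healthy, while the cirrhosis libraries, from 547.1 to 791.4 CPM, lay within its range. Tnfaip3 fell by 2.50 on the log2 scale in acute (SE 0.40, adjusted p = 0.00010) and by 1.44 in fibrosis (SE 0.23, adjusted p = 0.00011). In cirrhosis the log2 fold change was -0.05 (95% interval -0.45 to 0.36, adjusted p = 0.84).

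Bcl3, an atypical nuclear IkappaB protein that binds dimers of the Nfkb1 and Nfkb2 products, had the largest change of the 10 genes in acute and fibrosis. It was 88.35 CPM in healthy replicate 6 and 165.9 to 396.6 CPM in the other 5 healthy libraries. Acute libraries held 13.7 to 30.77 CPM and fibrosis libraries 25.71 to 30.94 CPM. Bcl3 fell by 3.28 in acute (SE 0.35, adjusted p = 3.31e-06), which is 9.71-fold, and by 2.72 in fibrosis (SE 0.31, adjusted p = 8.23e-06), which is 6.58-fold. The acute change ranked above 84.5% of all genes tested in size. In cirrhosis it lay between 87.91 and 135.8 CPM and fell by 0.79 (SE 0.30, adjusted p = 0.038), a call that was lost in 5 of the fits that left out a library.

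**Figure D4:**
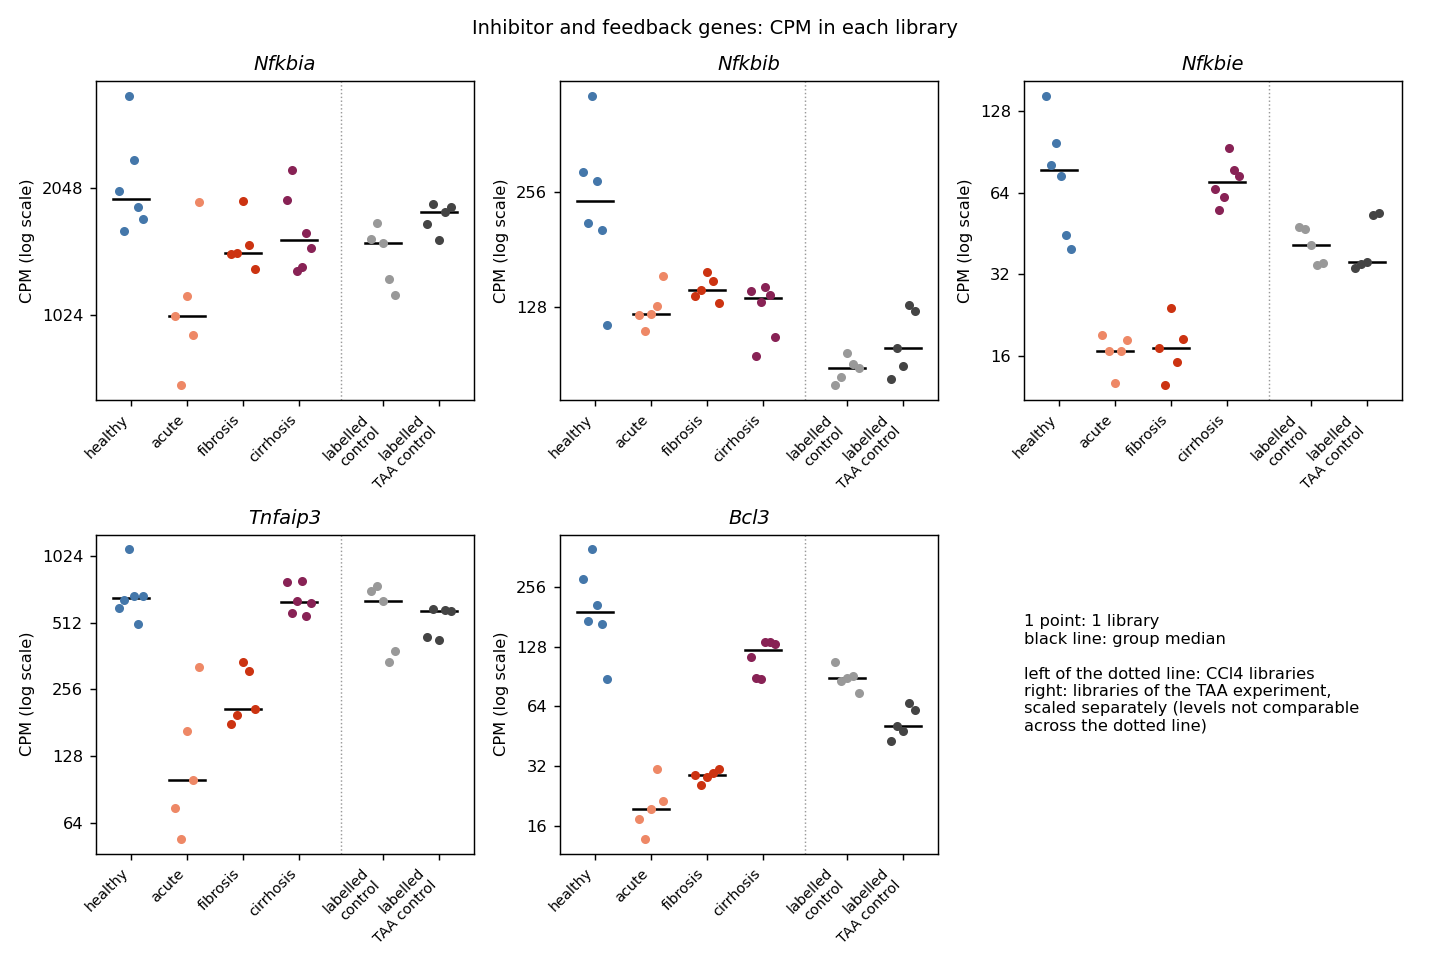
CPM of the inhibitor and feedback genes in each library on a log scale, with group medians as black lines and the separately scaled TAA experiment right of the dotted line. In Nfkbie, Tnfaip3 and Bcl3 the acute and fibrosis libraries lie below all healthy and cirrhosis libraries, and in Nfkbia and Nfkbib the groups overlap.

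The stages were then compared directly. Between fibrosis and acute, 1 of the 10 genes was called higher and 0 lower, where 10.2% of 13931 genes were called higher and 0.732% lower. The called gene was Bcl3, with a log2 difference of 0.60 (SE 0.18, adjusted p = 0.039) and overlapping libraries. Its call was lost when any 1 library other than acute replicates 4 and 8 was left out. By edgeR's quasi-likelihood test and by DESeq2 no gene of the 10 was called, and at an unadjusted p under 0.05 with the fold-change threshold 3 were. Tnfaip3 differed by 1.11 (95% interval 0.16 to 2.05, adjusted p = 0.090), and without acute replicate 8 it was 1 of 4 genes called, with Rel, Nfkbia and Bcl3. Rela, Nfkb2 and Relb differed by 0.04, 0.02 and 0.08, with 95% intervals within -0.17 and 0.29.

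Between cirrhosis and fibrosis, 5 of the 10 genes were called higher and 0 lower, against 34.3% and 29.5% of 15186 genes. They were Nfkbie (log2 difference 2.04, SE 0.17, adjusted p = 3.60e-07), Bcl3 (1.98, SE 0.13, adjusted p = 5.50e-08), Rel (1.86, SE 0.10, adjusted p = 7.33e-09), Tnfaip3 (1.45, SE 0.18, adjusted p = 1.39e-05) and Rela (0.81, SE 0.07, adjusted p = 5.68e-07). Their libraries did not overlap between the groups, but how common this was among all genes was not computed. The other 5 had log2 differences between -0.20 and 0.10. Their 95% intervals reached at most from -0.74 to 0.45, and the lower bound of Rela's interval, 0.66, lay outside all of them.

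Between cirrhosis and acute, 6 genes were called higher and 0 lower, against 37.5% and 31.8% of 15005 genes. Bcl3, Tnfaip3, Rel, Nfkbie and Rela were among them and again did not overlap, with log2 differences of 2.51, 2.48, 2.37, 2.09 and 0.78 in this order. The sixth was Nfkbia with 0.59 (SE 0.24, adjusted p = 0.035), whose libraries overlapped and whose call was lost in 6 of the fits that left out a library. The comparisons of cirrhosis with acute and with fibrosis share the cirrhosis libraries.

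**Figure D5:**
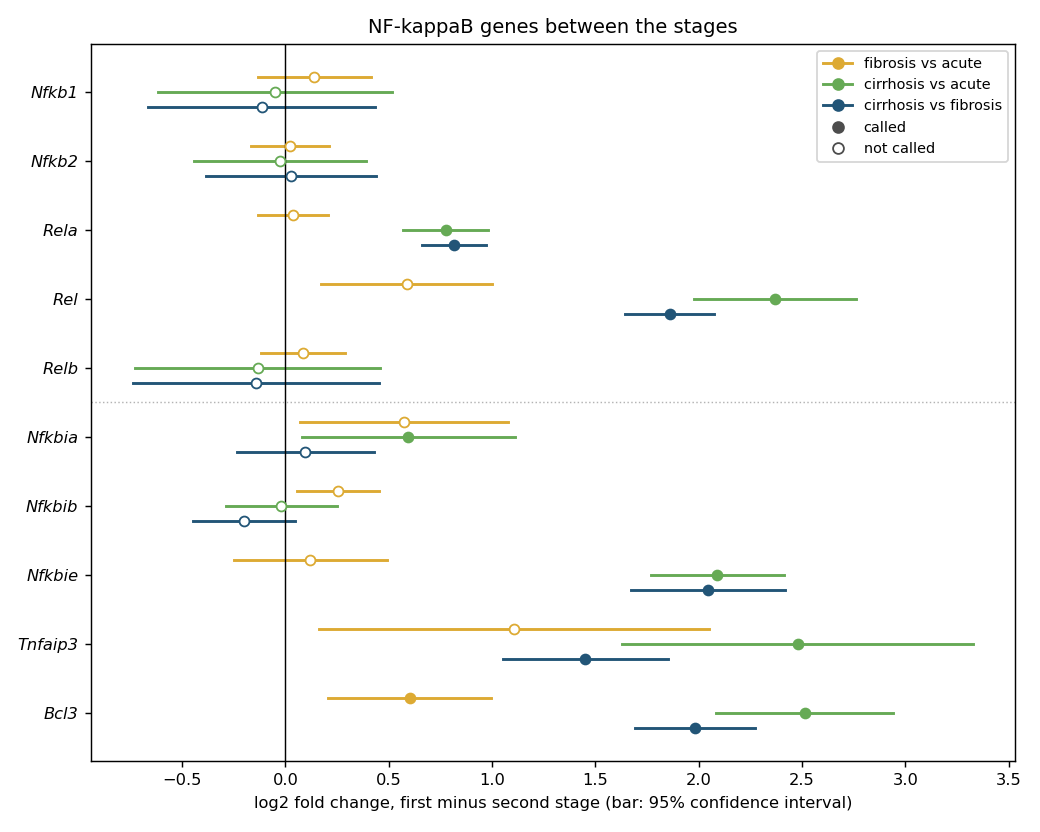
Log2 fold change of each gene between fibrosis and acute, cirrhosis and acute, and cirrhosis and fibrosis on the horizontal axis, with 95% confidence intervals as bars and filled points for called genes. Rela, Rel, Nfkbie, Tnfaip3 and Bcl3 lie right of 0 in both comparisons with cirrhosis, whereas the intervals of Nfkb1, Nfkb2 and Relb include 0 in all 3.

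These calls sorted 9 of the 10 genes into 2 sets, the second only by a lack of calls between exposed stages. Rel, Rela, Nfkbie, Tnfaip3 and Bcl3 were low in acute and fibrosis and higher in cirrhosis. Of all genes tested, 37.9% and 34.9% were called lower than healthy in acute and fibrosis. In cirrhosis, 34.3% were called higher than in fibrosis and 37.5% higher than in acute. The share of all genes with this whole course was not computed. In cirrhosis Rel lay above healthy, and Nfkbie and Tnfaip3 lay within the healthy range. Rela and Bcl3 were called lower than healthy there, but their libraries overlapped with healthy. Both calls were lost without TMM factors, and that of Bcl3 also in 5 of the fits that left out a library. Nfkb1, Nfkb2, Relb and Nfkbib were not called in any comparison between exposed stages, but did not share a course. Against healthy, Nfkb1 was called higher in acute and fibrosis, Nfkbib lower at every stage, and Nfkb2 and Relb in no comparison. Nfkbia, called between exposed stages only for cirrhosis and acute, stood between the 2 sets. The sets did not follow the division into subunits and inhibitors. A promoter match was found in 4 of the 5 genes of the first set, all but Rela. In the second set it was found in Nfkb1 and Nfkb2 of the 3 searched, since Relb could not be searched. Most of the LSEC, immediate-early, macrophage, lymphocyte and hepatocyte genes given above were likewise low in acute and fibrosis and higher in cirrhosis. The endothelial gene Cdh5 was not, with means of 1597 CPM in acute and 1506 CPM in cirrhosis. The part of these lists in the course of the 10 genes was not tested.

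Correlations over the 22 CCl4 libraries describe the same levels and carry no test, since the libraries share their groups and the scaling. Among the 45 pairs of the 10 genes Pearson's r ranged from -0.39 for Nfkb1 and Rela to 0.94 for Nfkbie and Bcl3. After each library's group mean was taken off, the highest was 0.97 for Nfkb2 and Relb, and the lowest -0.14 for Rel and Bcl3. Over 8568 genes searched, Relb was then also the gene most like Nfkb2 and Nfkb2 the gene most like Relb. Next came Zfp335 (0.96) and Ifngr2 (0.96). Nfkb2 also had r of 0.92 with Nfkbib and 0.85 with Rela. The log2 SD of Nfkb2 and Relb was 0.83 and 0.99 in healthy and 0.47 and 0.68 in cirrhosis. It was 0.17 and 0.21 in acute and 0.08 and 0.04 in fibrosis, so that healthy and cirrhosis libraries weighed most. Without taking off group means, the genes most like the others were Tgm2 (0.99) and Zc3h12a (0.98) for Bcl3, Ccrl2 (0.96) and Nfkbid (0.96) for Nfkbie, Timp3 (0.95) and Cxcl11 (0.95) for Tnfaip3, Tbc1d22a (0.99) and Ldb1 (0.99) for Rela, and Filip1 (0.98) and Arhgap26 (0.98) for Rel. They were Hivep1 (0.90) and Plscr1 (0.88) for Nfkb1, Tjap1 (0.97) and Zfp335 (0.96) for Nfkbib, Tjap1 (0.95) and Akt2 (0.94) for Nfkb2, and Ifngr2 (0.94) and Pprc1 (0.89) for Relb. For Nfkbia the most similar gene was Gadd45b, a stress-induced gene, with r of 0.88 both before and after group means were taken off.

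Of 27 kinase and adaptor genes upstream of the inhibitors, 8 were called higher and 11 lower in acute, 9 and 10 in fibrosis, and 9 and 8 in cirrhosis. Over all genes tested the shares higher and lower were 35.5% and 37.9% in acute, 35.3% and 34.9% in fibrosis, and 27.1% and 24.7% in cirrhosis, so that the counts of this list lay near the background. Myd88, the adaptor of Toll-like and interleukin-1 receptors, fell by 3.01 in acute (adjusted p = 1.05e-07) and by 2.95 in fibrosis (adjusted p = 1.50e-07). Its median was 436.1 CPM in healthy, 51.20 CPM in acute, 47.60 CPM in fibrosis and 230.4 CPM in cirrhosis, and no acute or fibrosis library came above 59.41 CPM. In cirrhosis the largest changes were in Rbck1, a subunit of the linear ubiquitin ligase, which fell 2.84-fold (adjusted p = 0.00016), and in Map3k14, the kinase of the non-canonical branch, which fell 2.63-fold (adjusted p = 0.0023). Map3k7, the kinase TAK1, was also called lower in acute and fibrosis, but its median library there was listed at 0 CPM, against 16.5 CPM in healthy and 33.9 CPM in cirrhosis, and no fold is given.

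Of 14 other inhibitors and partners of A20, 5 were called higher and 6 lower in acute, 5 and 5 in fibrosis, and 5 and 2 in cirrhosis. Zc3h12a, an RNase that cuts cytokine transcripts, had the largest fall, by 4.04 in acute (adjusted p = 5.23e-08) and by 3.35 in fibrosis (adjusted p = 2.67e-08), from a healthy median of 2351 CPM to 140.4 and 200.1 CPM. Nfkbid, another nuclear IkappaB gene, fell by 2.91 in fibrosis (adjusted p = 0.00011). Tax1bp1, a partner of A20, rose by 1.87 in acute (adjusted p = 0.00069), by 1.90 in fibrosis (adjusted p = 0.00072) and by 1.39 in cirrhosis (adjusted p = 0.0059). Tnip3, which binds A20, rose by 3.07 in acute (adjusted p = 2.36e-05) and by 2.24 in cirrhosis (adjusted p = 0.0056), at a low level of at most 7.48 CPM in any CCl4 library.

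Of 30 textbook target genes listed, 28 were in the files, and 27 or 28 could be tested. In acute 10 were called higher and 13 lower, in fibrosis 11 and 12, and in cirrhosis 8 and 6, again counts not far from the shares over all genes. Cxcl10, a chemokine for T cells, fell by 5.95 in acute (adjusted p = 1.67e-07), from a healthy median of 2902 CPM to 29.65 CPM. Tnf had a healthy median of 74.5 CPM and at most 2.40 CPM in acute, where its fitted log2 fold change was -7.82 (adjusted p = 0.00013), a size that depends on libraries at or near 0. In fibrosis Irf1, a transcription factor of the interferon response, fell by 4.74 (adjusted p = 1.10e-08) and the adhesion molecule gene Icam1 fell by 4.54 (adjusted p = 2.73e-08). The chemokine gene Ccl2 rose instead, by 3.81 in acute (adjusted p = 1.68e-05) and by 3.86 in fibrosis (adjusted p = 9.13e-06), an example chosen after its values were seen. In cirrhosis Il6 rose by 4.17 (adjusted p = 2.43e-05), from a healthy median of 2.02 CPM to 35.9 CPM, and the adhesion molecule gene Sele rose by 2.74 (adjusted p = 0.00012), from 15.6 to 111.1 CPM.

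Between cirrhosis and fibrosis 10 kinase and adaptor genes were called higher and 9 lower, 6 and 1 of the other inhibitors, and 14 and 10 of the target genes. Between cirrhosis and acute the counts were 10 and 10, 7 and 1, and 15 and 9. Between fibrosis and acute they were 0 and 0, 2 and 0, and 6 and 0. Of all genes, 37.5% and 31.8% were called higher and lower between cirrhosis and acute. Between fibrosis and acute these shares were 10.2% and 0.732%. Over all genes, 34.3% were called higher and 29.5% lower between cirrhosis and fibrosis. The median log2 difference there was 0.37 for the kinase and adaptor genes, 0.43 for the 14 other inhibitors and 1.16 for the target genes. Over all genes it was 0.04. The lists were written with earlier results of these data known.

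In the TAA experiment, 3 of the 10 genes were called lower and 0 higher in the group labelled TAA control than in the group labelled control, where 14.9% and 12.7% of 14376 genes were called. Relb was 32.79, 36.1, 27.72, 52.64 and 51.37 CPM in the group labelled TAA control (replicates 10, 12, 13, 14 and 15), and 57.87, 56.24, 81.8, 93.12 and 86.15 CPM in replicates 1 to 5 of the group labelled control. The groups did not overlap, and the log2 difference was -0.92 (SE 0.21, adjusted p = 0.0038). Nfkb1 was 151.8 to 243.5 CPM in the group labelled TAA control and 244.1 to 420.2 CPM in the group labelled control, again without overlap (log2 difference -0.84, SE 0.21, adjusted p = 0.0061). Bcl3 was 42.64 to 66.38 and 74.94 to 107.6 CPM, with a log2 difference of -0.75 (SE 0.13, adjusted p = 0.00093).

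Within each of these groups the libraries fell into sets for Nfkb1 and Relb. Replicates 1 and 2 of the group labelled control had 244.1 and 248 CPM of Nfkb1 and replicates 3 to 5 had 403.8 to 420.2 CPM, and in the group labelled TAA control replicates 14 and 15 had 243.5 and 235.4 CPM and the other 3 had 151.8 to 161.2 CPM. Rela, the main activating subunit, was 440.1 to 510.4 CPM in the group labelled TAA control and 476.2 to 558 CPM in the group labelled control, with a log2 difference of -0.08 (95% interval -0.24 to 0.08). Nfkbia differed by 0.30 (adjusted p = 0.049), which is under the fold-change threshold. Rel, Nfkb2, Nfkbib, Nfkbie and Tnfaip3 had log2 differences between -0.29 and 0.34 and adjusted p of 0.087 or more. The immediate-early list summed to 41022 to 61214 CPM in the group labelled TAA control and 12056 to 24732 CPM in the group labelled control, and the stellate cell list to 343 to 536 and 2079 to 5177 CPM. Their part in the difference was not tested. The Nfkb2 to Nfkb1 ratio was 0.828 to 0.938 and 0.517 to 0.735 in these groups, without overlap.

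Of the other pathway genes, 2 kinase and adaptor genes were called higher and 1 lower in the group labelled TAA control, 2 and 1 of the other inhibitors, and 9 and 11 of the target genes, where 12.7% and 14.9% of all genes were called. The genes called in this experiment and in the CCl4 comparisons were Nfkb1, called higher in acute and fibrosis against healthy, and Bcl3, called lower at all 3 stages, whereas Relb was called in the TAA experiment alone. Whether the effects of the experiments differ was not tested.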

How the data were processed

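Poly(A) RNA of LSECs was sequenced in 32 libraries, 22 of the CCl4 experiment and 10 of the TAA experiment. The authors trimmed and checked the reads with Trim Galore and FastQC, used STAR with the Rnor_6.0 genome for mapping and RSEM for gene quantification, per the labels and the study's methods. The deposited values are RSEM expected counts for 32623 genes per library, neither normalized nor pooled, and between 10.3% and 12.4% of the values in a library were not whole numbers. Versions of these tools are not given in the sources used here. RSEM divides reads that fit several genes by its estimates.

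Expected counts were rounded and analysed in R 4.3.3. Each comparison was fitted on its 2 groups with limma-voom (limma 3.58.1), TMM factors and filterByExpr (edgeR 4.0.16), without covariates, and p-values were adjusted over all genes tested. A gene was called at an adjusted p under 0.05 and a fold change above 1.5, whereas the study used an unadjusted p. Intervals are 95% confidence intervals of the fit. CPM used TMM factors over all libraries of an experiment, with a pseudocount of 0.5 for log2 values in correlations and distances. The steps were tested on simulated data in which few genes changed, equally up and down. Such data cannot test the scaling where most genes differ, as between acute and healthy. Alternatives were edgeR's quasi-likelihood test, DESeq2 1.42.0, other scaling factors, other filters and call rules, a single fit, the replicate number as a block and leaving out libraries. Leaving out the farthest library of each group and averaging 2 near-identical libraries were added after the data were seen. Figures were drawn with matplotlib 3.10.9 in Python 3.11.15.

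The 10 genes and the lists were chosen with earlier results of these data known. Outside the 10 genes, the text names the 2 genes of each pathway list with the largest change among those called in a comparison with healthy (mean log2 CPM of at least 1), and the 2 genes with a symbol most correlated with each of the 10 (mean log2 CPM of at least 3). Replicate numbers come from the titles. Same-numbered libraries come from different rats, and their deviations from the group means correlated by -0.24 to 0.29, so that the numbers were not taken to pair them. Gene positions on Rnor_6.0 and gene lengths were not used here.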

Additional observations from a re-analysis of the deposited data

Results flagged for a closer look

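In 5 of the 60 sets formed by 1 gene and 1 group, Dixon's test at its 95% limit singled out a library, and chance alone flags about 1 in 20 such sets, or 3. Cirrhosis replicate 2 was apart in 3 of them, with 189.8 CPM of Nfkb1, 149.1 CPM of Nfkb2 and 34.96 CPM of Relb, each below the other 5 cirrhosis libraries. It was also the cirrhosis library farthest from the others over all genes. Rel stood apart in cirrhosis replicate 6 at 93.36 CPM, and Rela in replicate 1 of the group labelled control at 558 CPM.

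The effect against healthy differed between stages in 12 direct tests with an adjusted p under 0.05 by limma-voom and a fold change above 1.5. Between cirrhosis and fibrosis the log2 differences were 1.86 for Rel, 0.81 for Rela, 2.04 for Nfkbie, 1.45 for Tnfaip3 and 1.98 for Bcl3. Between cirrhosis and acute they were 2.37 for Rel, 0.78 for Rela, 0.59 for Nfkbia, 2.09 for Nfkbie, 2.48 for Tnfaip3 and 2.51 for Bcl3. Between fibrosis and acute it was 0.60 for Bcl3. The shares of all genes called higher and lower were 34.3% and 29.5% between cirrhosis and fibrosis. They were 37.5% and 31.8% between cirrhosis and acute, and 10.2% and 0.732% between fibrosis and acute. Leaving out 1 library removed the Nfkbia call in 6 fits and the Bcl3 call between fibrosis and acute in 8.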

How the results depend on the processing

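No value of the 70 results (10 genes in 7 comparisons) changed sign as a called change under any alternative, and 19 changed call under at least 1. When each library was left out in turn, the number of genes called was 8 to 9 in acute against healthy, 6 to 8 in fibrosis and 3 to 5 in cirrhosis, 5 between cirrhosis and fibrosis, 5 to 6 between cirrhosis and acute, 0 to 4 between fibrosis and acute, with 4 without acute replicate 8, and 3 in the TAA experiment. Library sizes without TMM factors gave 2 genes in cirrhosis against healthy in place of 4, and moved the median log2 fold change of all genes from -0.09 to 0.32 in acute, from -0.03 to 0.37 in fibrosis and from 0.07 to 0.42 in cirrhosis. Upper-quartile factors called 2 genes higher and 2 lower in cirrhosis. Between fibrosis and acute, where 1 gene was called, the number was 3 with unadjusted p-values, 3 without the farthest library of each group, 2 with upper-quartile factors, 2 with a CPM filter, and 0 by edgeR, by DESeq2, without TMM factors, without a filter and in a single fit. For these changes the cause was not tested. With the replicate number as a block, 10 genes were called in acute against healthy, 9 without the block on the same 8 libraries, and 6 in cirrhosis against acute with and without it. In cirrhosis against healthy it gave 4, 2 higher and 2 lower in place of 1 and 3, since Nfkb1 gained its call (adjusted p = 0.044) and Bcl3 lost it (adjusted p = 0.064). The same-numbered libraries did not all deviate together (r of -0.24 to 0.29). No paired analysis was possible because fewer than 2 numbers are shared for fibrosis and for the TAA experiment. All 10 genes had at least 399 counts in every library, so that the spread between libraries, not depth, limited the precision.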
